A study of Homo sapiens with 6 samples.

Results

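The glutathione, peroxiredoxin and thioredoxin systems are the main enzymes with which a cell removes peroxides and keeps its thiols reduced. They are described here by 38 genes, taken by gene symbol from the 58735 genes of each library. RNA sequencing compared MUM2B cells that stably overexpressed LACTB (LACTB cells, 3 libraries) with MUM2B cells stably carrying an empty vector (empty vector cells, 3 libraries). MUM2B is an established human line that the labels give as melanoma, both groups were cultured in RPMI with serum, and both stably carried a vector. The labels do not give the promoter that drives LACTB, whether each line was a clone or a pool, or whether the replicates were separate cultures, so the p-values speak only to how far these libraries varied, which may be technical variation. LACTB encodes a mitochondrial beta-lactamase-like protein, and the comparison shows how raising it went with RNA levels of the 38 genes.

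Glutathione is a small thiol peptide that glutathione peroxidases use to reduce peroxides and that glutathione S-transferases attach to reactive compounds. Its oxidised form is recycled by glutathione reductase, which draws on NADPH. Peroxiredoxins reduce peroxides with a cysteine of their own and are restored mostly by thioredoxin, which thioredoxin reductases recharge from NADPH, while glutaredoxins use glutathione to undo mixed disulphides. The cytosol and the mitochondrion hold separate sets of several of these enzymes. In tumour cells, melanoma among them, the systems are known for their part in tolerance of oxidative stress and in resistance to ferroptosis, a form of death by lipid peroxidation.

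The libraries held 16978799 to 18395631 reads in genes, recovered from the deposited FPKM values (a level per library size and exon length). At that depth a gene of 2 kb needed 3 reads to reach 0.0827 to 0.0872 FPKM. LACTB itself stood at 173.9, 169.3 and 161.5 FPKM in the LACTB libraries, against 3.81, 3.385 and 4.71 FPKM in the empty vector libraries, matching the labels of all 6. Of 18 melanocyte lineage markers, 16 lay under 1 FPKM and 3 (S100B, PAX3 and OCA2) were at 0 in every library, so these markers do not bear out the labelled lineage. Their summed level was 7.93 to 8.42 FPKM in LACTB libraries and 8.61 to 8.90 FPKM in empty vector libraries. The leukocyte and fibroblast markers all lay under 1 FPKM, and of the 6 epithelial ones only KRT8 and KRT18 lay above it. The epithelial markers summed to 305 to 312 FPKM in LACTB libraries and 340.3 to 352 FPKM in empty vector libraries, without overlap, and the part of this difference in the results was not tested. Empty vector replicate 3 stood apart from its group. A chi-square statistic of its reads against replicates 1 and 2 was 10.8 and 11.2 per degree of freedom, against 2.90 between replicates 1 and 2 and 1.97 to 4.48 among LACTB libraries. Genes of the mitochondrial genome took 3.61% of its reads, against 4.65% to 5.04% in LACTB libraries and 5.54% and 5.62% in the other empty vector libraries.

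In LACTB cells, 7 of the 38 genes rose and 5 fell, and 3 of the 7 role groups held genes that went each way. GSR, GSTO1, MGST1, PRDX6, TXN, TXNIP and GLRX rose, by 1.15-fold (PRDX6) to 1.86-fold (MGST1) in the ratio of mean FPKM. MGST2, GPX3, GPX4, TXNRD2 and GLRX5 fell, with empty vector means 1.14-fold (GPX4) to 1.51-fold (GPX3) the LACTB means. The test was limma on log2(FPKM + 1) over the 11875 genes that averaged 1 FPKM or more, and a gene is said to have risen or fallen where its Benjamini-Hochberg adjusted p was under 0.05. 31 of the 38 genes passed that filter, so 22.6% of them rose and 16.1% fell. Among all tested genes, 14.8% rose (1758 genes) and 17.2% fell (2038 genes). The share that rose was above that of all genes, a difference that was not tested, and the share that fell was near it. The median log2 fold change was 0.03 over the 31 genes and -0.01 over all tested genes. Every LACTB library exceeded every empty vector library for 11 of the 31 genes, and every one was lower for 9, against 22.3% and 25.1% of all tested genes. Without empty vector replicate 3, the same comparison called 7 higher and 4 lower. In RNA from a whole culture, a different mix of cells and a different level per cell cannot be told apart.

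**Figure D1:**
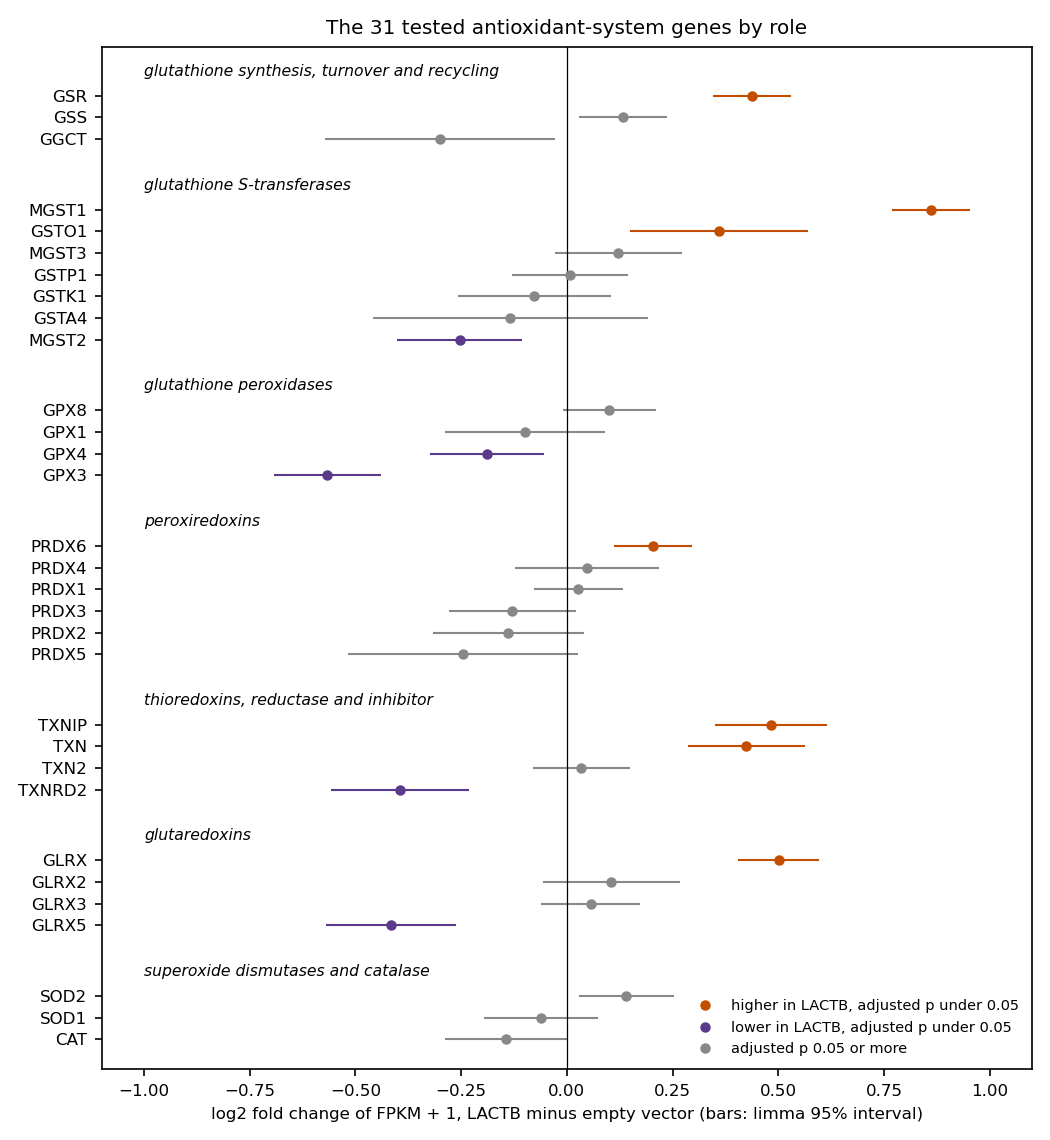
Log2 fold change of FPKM + 1 (LACTB minus empty vector, with limma's 95% interval) of the 31 tested genes, grouped by role; orange points rose and purple points fell at an adjusted p under 0.05, and grey points passed neither way. Rises and falls stand side by side in the transferases, the thioredoxin group and the glutaredoxins, and the 31 values run from -0.57 (GPX3) to 0.86 (MGST1).

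Of the genes that make, break down and recycle glutathione, the recycling enzyme rose. GSR (ENSG00000104687; GRCh38 chromosome 8, 30678061 to 30727999, minus strand), which encodes glutathione reductase, had 22.6, 23.1 and 23.1 FPKM in LACTB libraries, against 16.6, 17.2 and 16.2 FPKM in empty vector libraries. The groups did not overlap and each was tight, with means of 22.9 ± 0.290 FPKM in LACTB cells and 16.7 ± 0.525 FPKM in empty vector cells (SD, n = 3 each). The log2 fold change was 0.44 (SE 0.040; adjusted p = 0.00036, limma). GGCT, a cyclotransferase that takes apart gamma-glutamyl peptides, was the most abundant of this group, at 28.0, 31.0 and 29.6 FPKM in LACTB libraries and 35.3, 31.3 and 44.2 FPKM in empty vector libraries. The highest LACTB value lay just under the lowest empty vector value, and the empty vector libraries were widely spread. Its log2 fold change of -0.30 (95% interval -0.57 to -0.03) did not pass (limma, adjusted p = 0.089). GSS, the ligase of the last step of glutathione synthesis, averaged 14.7 ± 0.457 FPKM in LACTB cells and 13.4 ± 0.449 FPKM in empty vector cells and also did not pass (limma, adjusted p = 0.0581). GGT1, which cleaves glutathione outside the cell, lay under the filter. Its reads numbered 55, 50 and 38 in LACTB libraries and 21, 15 and 20 in empty vector libraries, without overlap. GGT1 overlaps SNRPD3, a splicing gene on the same strand with 44.9 FPKM in LACTB cells and 52.8 FPKM in empty vector cells, and whether shared reads were split correctly was not tested. Where the filter let GGT1 in, its limma adjusted p was 0.0419 (no filter) and 0.0389 (as TPM, which gives every library the same summed level).

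The glutathione S-transferases went both ways, and the largest rise of all 38 genes was among them. MGST1 (ENSG00000008394; chromosome 12, 16347142 to 16609259, plus strand), a membrane-bound transferase that also reduces lipid hydroperoxides, had 33.0, 31.5 and 31.6 FPKM in LACTB libraries, against 17.5, 17.0 and 17.0 FPKM in empty vector libraries. The lowest LACTB library was far above the highest empty vector library. Its mean was 32.0 ± 0.860 FPKM in LACTB cells and 17.2 ± 0.305 FPKM in empty vector cells (SD, n = 3 each), a log2 fold change of 0.86 (SE 0.039; adjusted p = 1.51e-05, limma). GSTO1 (ENSG00000148834; chromosome 10, 104235356 to 104267459, plus strand), an omega-class enzyme that acts as a thioltransferase and reduces dehydroascorbate, had 75.9, 82.9 and 76.7 FPKM in LACTB libraries, against 58.7, 54.8 and 70.1 FPKM in empty vector libraries. The groups did not overlap, and empty vector replicate 3 was the closest to the LACTB libraries. The log2 fold change of GSTO1 was 0.36 (SE 0.089; adjusted p = 0.0211, limma). MGST2 (ENSG00000085871; chromosome 4, 139665768 to 139740745, plus strand), a membrane-bound relative that can also form leukotriene C4, had 3.84, 3.91 and 4.0 FPKM in LACTB libraries, against 4.98, 5.21 and 4.41 FPKM in empty vector libraries. It was lower in every LACTB library, with a log2 fold change of -0.25 (SE 0.063; adjusted p = 0.0215, limma).

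The calls of GSTO1 and MGST2 were not firm. That of GSTO1 was lost without LACTB replicate 2 or 3 (limma, adjusted p = 0.0748 and 0.0532) and without empty vector replicate 1 or 2 (0.0629 and 0.0544), and its adjusted p was 0.00249 without empty vector replicate 3. That of MGST2 was lost without LACTB replicate 1, 2 or 3 (limma, adjusted p = 0.0609, 0.0672 and 0.0518) and without empty vector replicate 1 or 2 (0.0645 and 0.067), and its adjusted p was 0.00854 without empty vector replicate 3. MGST2 lies across MAML3 and the pseudogene H3F3AP6 on the other strand; MAML3 had 2.43 FPKM in LACTB cells and 3.38 FPKM in empty vector cells, H3F3AP6 had 5.45 FPKM in LACTB cells and 6.88 FPKM in empty vector cells, and their part in the MGST2 value was not tested.

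GSTP1, the pi-class enzyme and the most abundant transferase (rank 271 of all genes by mean FPKM), had 111, 126 and 125 FPKM in LACTB libraries and 124, 118 and 118 FPKM in empty vector libraries. The groups overlapped, and the log2 fold change was 0.01 (95% interval -0.13 to 0.15; limma, adjusted p = 0.935). MGST3, GSTK1 and GSTA4 did not pass either, with MGST3 at 3.05 ± 0.136 FPKM in LACTB cells and 2.72 ± 0.205 FPKM in empty vector cells, GSTK1 at 4.85 ± 0.432 FPKM in LACTB cells and 5.17 ± 0.442 FPKM in empty vector cells, and GSTA4, which clears lipid aldehydes, at 1.2 ± 0.323 FPKM in LACTB cells and 1.36 ± 0.292 FPKM in empty vector cells (SD, n = 3 each). The mu class was all but silent. GSTM3 had 0 reads in all 6 libraries, which allows at most 0.0348 to 0.0367 FPKM a library by the limit of 3 reads, and GSTM2 had 3 reads in all. GSTM4 had 22, 19 and 20 reads in LACTB libraries and 15, 7 and 9 reads in empty vector libraries, too few for the filter. GSTZ1, an isomerase of tyrosine breakdown, just missed it, at 0.974 ± 0.203 FPKM in LACTB cells and 0.877 ± 0.0711 FPKM in empty vector cells, and its libraries overlapped.

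Promoters of 4 genes are printed to set those that rose beside one that did not. MGST1, TXN and GSTO1 rose, and GSTP1, a long-known gene of the antioxidant response, did not pass. Each window runs from 250 bases before to 50 bases after the gene's start in RefSeq (GRCh38.p14), on the gene's own strand: chr12:16347395-16347694 (plus) for MGST1, chr9:110256458-110256757 (minus) for TXN, chr10:104254642-104254941 (plus) for GSTO1 and chr11:67583562-67583861 (plus) for GSTP1. Capitals mark TGACNNNGC, the core of the antioxidant response element bound by NRF2, searched on both strands.
MGST1: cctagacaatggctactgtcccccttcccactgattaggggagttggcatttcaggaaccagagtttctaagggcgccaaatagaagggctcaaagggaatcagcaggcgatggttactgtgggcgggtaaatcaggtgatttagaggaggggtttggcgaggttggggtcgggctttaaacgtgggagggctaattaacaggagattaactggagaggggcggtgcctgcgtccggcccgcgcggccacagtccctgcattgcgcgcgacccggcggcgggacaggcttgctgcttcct
TXN: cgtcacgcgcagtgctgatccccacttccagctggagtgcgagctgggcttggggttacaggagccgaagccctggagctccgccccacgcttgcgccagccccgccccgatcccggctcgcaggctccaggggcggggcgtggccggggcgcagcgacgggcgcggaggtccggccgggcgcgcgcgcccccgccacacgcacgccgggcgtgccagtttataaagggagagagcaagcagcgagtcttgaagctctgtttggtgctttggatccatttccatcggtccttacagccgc
GSTO1: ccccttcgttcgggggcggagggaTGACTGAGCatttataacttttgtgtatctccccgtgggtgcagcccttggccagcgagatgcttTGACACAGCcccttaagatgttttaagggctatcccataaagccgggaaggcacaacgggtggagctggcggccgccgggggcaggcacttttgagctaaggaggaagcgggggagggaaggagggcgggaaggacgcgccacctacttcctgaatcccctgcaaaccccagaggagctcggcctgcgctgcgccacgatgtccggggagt
GSTP1: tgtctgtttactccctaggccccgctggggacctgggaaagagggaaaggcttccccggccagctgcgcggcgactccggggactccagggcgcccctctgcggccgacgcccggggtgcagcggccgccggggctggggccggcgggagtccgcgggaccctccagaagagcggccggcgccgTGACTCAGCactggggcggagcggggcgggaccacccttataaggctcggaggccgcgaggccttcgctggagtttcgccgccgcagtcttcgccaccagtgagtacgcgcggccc

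RefSeq windows were matched for 29 of the 38 genes, and 4 of the 29 held the core (GSTO1, GSTP1, GSTA4 and GPX2), against 13.6% of 27305 promoters. GSTO1 held it at positions -226 and -161 from the start, and GSTP1 at -66, where it contains TGANTCA, the AP-1 site, which 7.76% of promoters held. The core lay in 1 of 5 matched windows of genes that rose, in 0 of 4 of genes that fell, and in 2 of 13 of tested genes that did not pass. The E-box CACGTG lay in the windows of GPX1, PRDX3 and PRDX4 (7.43% of promoters), and TGATGNAAN, the composite element bound by ATF4, in that of GPX8 (3.67%). None of the 4 motifs was found in these windows of MGST1 or TXN. A match is only a run of letters in the window.

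Among the glutathione peroxidases, 2 of the 4 tested fell and none rose. GPX3 (ENSG00000211445; chromosome 5, 151020438 to 151028993, plus strand), the secreted peroxidase of plasma, had 15.2, 16.4 and 16.7 FPKM in LACTB libraries, against 23.9, 25.7 and 23.5 FPKM in empty vector libraries. The groups were well separated, at 16.1 ± 0.797 FPKM in LACTB cells and 24.4 ± 1.20 FPKM in empty vector cells (SD, n = 3 each), the largest fall of the 38 genes on the log2 scale (-0.57, SE 0.054; adjusted p = 0.000445, limma). GPX4 (ENSG00000167468; chromosome 19, 1103926 to 1106791, plus strand), which reduces phospholipid hydroperoxides in membranes and holds ferroptosis in check, had 33.7, 38.4 and 38.1 FPKM in LACTB libraries, against 41.2, 41.5 and 43.0 FPKM in empty vector libraries. All LACTB libraries were lower, with replicate 1 the lowest. The log2 fold change of GPX4 was small (-0.19, SE 0.057; adjusted p = 0.0428, limma). Its call was lost when any 1 of the 6 libraries was left out (limma, adjusted p = 0.0603 to 0.0959).

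GPX1, the peroxidase of cytosol and mitochondria and the most abundant of the family, had 182, 214 and 219.9 FPKM in LACTB libraries and 229, 207 and 222 FPKM in empty vector libraries. The groups overlapped, and the log2 fold change of -0.10 (95% interval -0.29 to 0.09) did not pass (limma, adjusted p = 0.391). GPX8, a peroxidase of the endoplasmic reticulum membrane, averaged 34.9 ± 1.00 FPKM in LACTB cells and 32.5 ± 1.49 FPKM in empty vector cells (limma, adjusted p = 0.149). GPX2, known from the gut lining, had 2 to 8 reads in LACTB libraries and 3 to 7 reads in empty vector libraries, and GPX7 had 0 reads in all 6, which allows at most 0.0978 to 0.103 FPKM a library.

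**Figure D2:**
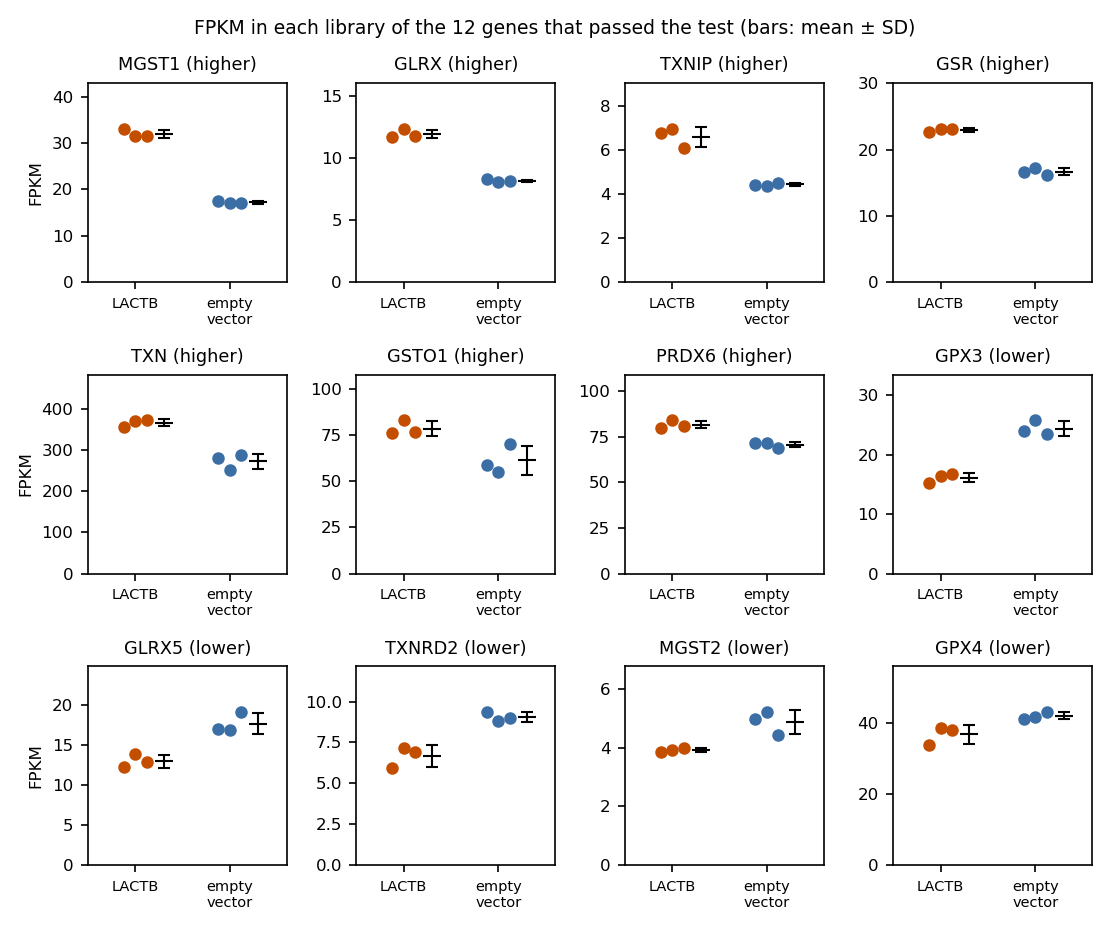
FPKM in each library (points; LACTB in orange, empty vector in blue, bars for mean ± SD, n = 3 each) of the 12 genes that passed the test, on axes that start at 0. MGST1 at 31.5 to 33.0 FPKM in LACTB libraries against 17.0 to 17.5 FPKM in empty vector libraries shows the widest gap for its level, while in GPX4 and GSTO1 the groups come close.

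Most peroxiredoxins did not pass, and PRDX6 alone of the 6 rose. PRDX6 (ENSG00000117592; chromosome 1, 173477266 to 173488807, plus strand), which works with glutathione instead of thioredoxin and repairs oxidised membrane lipids, had 80.1, 84.0 and 80.9 FPKM in LACTB libraries, against 71.8, 71.4 and 69.1 FPKM in empty vector libraries. The groups did not overlap, at 81.7 ± 2.06 FPKM in LACTB cells and 70.8 ± 1.47 FPKM in empty vector cells (SD, n = 3 each), a small but even rise (log2 fold change 0.20, SE 0.039; adjusted p = 0.00804, limma). PRDX1, the chief cytosolic peroxiredoxin (rank 112 of all genes by mean FPKM), had 242, 258 and 258 FPKM in LACTB libraries and 247, 245 and 253 FPKM in empty vector libraries. Its groups overlapped, and its log2 fold change of 0.03 had a 95% interval of -0.08 to 0.13 (limma, adjusted p = 0.689). PRDX5, found in mitochondria, peroxisomes and cytosol, had 70.3, 83.8 and 86.8 FPKM in LACTB libraries and 96.6, 82.0 and 108 FPKM in empty vector libraries. Its libraries were widely spread and overlapped (log2 fold change -0.25; limma, adjusted p = 0.151). The cytosolic PRDX2 averaged 14.7 ± 1.53 FPKM in LACTB cells and 16.2 ± 0.680 FPKM in empty vector cells, and the mitochondrial PRDX3 27.2 ± 1.27 FPKM in LACTB cells and 29.8 ± 2.33 FPKM in empty vector cells. In both, every LACTB library was under every empty vector library, yet neither passed (limma, adjusted p = 0.21 and 0.168). PRDX4, of the endoplasmic reticulum, averaged 42.1 ± 3.0 FPKM in LACTB cells and 40.8 ± 3.22 FPKM in empty vector cells.

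In the thioredoxin group the cytosolic thioredoxin and its inhibitor rose while the mitochondrial reductase fell. TXN (ENSG00000136810; chromosome 9, 110243811 to 110256640, minus strand), the cytosolic thioredoxin whose promoter is printed above, was the most abundant of all 38 genes (rank 80 by mean FPKM). It had 357, 372 and 373 FPKM in LACTB libraries, against 281, 253 and 288 FPKM in empty vector libraries. The groups lay well apart, at 368 ± 9.01 FPKM in LACTB cells and 274 ± 18.2 FPKM in empty vector cells (SD, n = 3 each), a log2 fold change of 0.42 (SE 0.059; adjusted p = 0.00219, limma). Its 7 named pseudogenes together held 10 reads over the 6 libraries, against 39185 for TXN. TXNIP (ENSG00000265972; chromosome 1, 145992435 to 145996600, minus strand), an arrestin-like protein that binds and inhibits thioredoxin and curbs glucose uptake, had 6.76, 6.96 and 6.09 FPKM in LACTB libraries, against 4.42, 4.38 and 4.50 FPKM in empty vector libraries. The empty vector libraries were nearly equal and all lower than the LACTB ones (log2 fold change 0.48, SE 0.056; adjusted p = 0.00106, limma).

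TXNRD2 (ENSG00000184470; chromosome 22, 19875517 to 19941992, minus strand), the thioredoxin reductase of mitochondria, had 5.92, 7.19 and 6.91 FPKM in LACTB libraries, against 9.37, 8.80 and 9.02 FPKM in empty vector libraries. The groups did not overlap (log2 fold change -0.39, SE 0.069; adjusted p = 0.00587, limma). TXN2, the thioredoxin of mitochondria, had 34.3, 38.6 and 36.3 FPKM in LACTB libraries and 35.7, 35.8 and 35.0 FPKM in empty vector libraries. The groups overlapped, and its log2 fold change of 0.03 had a 95% interval of -0.08 to 0.15 (limma, adjusted p = 0.633).

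Of the 4 glutaredoxins, GLRX rose and GLRX5 fell. GLRX (ENSG00000173221; chromosome 5, 95751319 to 95823005, minus strand), the cytosolic glutaredoxin that removes glutathione from proteins, had 11.7, 12.4 and 11.8 FPKM in LACTB libraries, against 8.27, 8.10 and 8.12 FPKM in empty vector libraries. The groups lay far apart for their spread (log2 fold change 0.50, SE 0.041; adjusted p = 0.000218, limma). RHOBTB3, which overlaps GLRX on the other strand, had 19.6 FPKM in LACTB cells and 18.1 FPKM in empty vector cells, and its part in the GLRX value was not tested. GLRX5 (ENSG00000182512; chromosome 14, 95533503 to 95544724, plus strand), a mitochondrial protein that passes on iron-sulphur clusters, had 12.2, 13.9 and 12.9 FPKM in LACTB libraries, against 17.0, 16.9 and 19.2 FPKM in empty vector libraries. The groups did not overlap, and empty vector replicate 3 was the highest (log2 fold change -0.42, SE 0.065; adjusted p = 0.00369, limma). Without that library the log2 fold change was -0.36 (limma, adjusted p = 0.00709). SNHG10, an antisense neighbour that overlaps GLRX5, had 3.28 FPKM in LACTB cells and 3.37 FPKM in empty vector cells, and its part was not tested. GLRX3, a cytosolic iron-sulphur protein and the most abundant of the 4, had 24.2, 25.5 and 24.0 FPKM in LACTB libraries and 22.7, 23.1 and 25.0 FPKM in empty vector libraries. Its groups overlapped, as did those of GLRX2, of mitochondria and nucleus, at 3.76 ± 0.180 FPKM in LACTB cells and 3.43 ± 0.315 FPKM in empty vector cells (limma, adjusted p = 0.429 for GLRX3 and 0.286 for GLRX2).

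The superoxide dismutases and catalase, which turn superoxide into peroxide and peroxide into water, did not pass. SOD1, the cytosolic copper-zinc enzyme, had 76.4, 73.7 and 75.3 FPKM in LACTB libraries and 77.3, 73.6 and 84.9 FPKM in empty vector libraries. The groups overlapped (log2 fold change -0.06, 95% interval -0.20 to 0.07; limma, adjusted p = 0.455). SOD2, the manganese enzyme of mitochondria, had 6.91, 6.58 and 6.27 FPKM in LACTB libraries, all above the 5.90, 5.88 and 5.85 FPKM of the empty vector libraries, with a limma adjusted p of 0.0626. CAT averaged 11.5 ± 0.855 FPKM in LACTB cells and 12.8 ± 0.572 FPKM in empty vector cells (SD, n = 3 each; limma, adjusted p = 0.122).

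The 19 tested genes that did not pass had log2 fold changes from -0.30 to 0.14. The 95% intervals of 15 of them lay within 0.3 of 0 on that scale, so smaller changes remain inside those intervals. Their LACTB libraries were all higher in 4, all lower in 4 and overlapping in 11. Of all tested genes, those that passed included, 22.3% had every LACTB library higher and 25.1% every one lower.

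Because FPKM is a level per length, the levels of a group can be added up. The thioredoxin group summed to 417 ± 11.4 FPKM in LACTB cells and 323 ± 18.1 FPKM in empty vector cells (SD, n = 3 each), most of it TXN. The transferases summed to 245 ± 9.72 FPKM in LACTB cells and 213 ± 7.87 FPKM in empty vector cells. The peroxiredoxins, the largest pool, summed to 499 ± 23.1 FPKM in LACTB cells and 501 ± 20.8 FPKM in empty vector cells, and the glutathione peroxidases to 293 ± 24.0 FPKM in LACTB cells and 318 ± 11.7 FPKM in empty vector cells. Over all 38 genes the sum was 1669 ± 70.2 FPKM in LACTB cells and 1573 ± 69.2 FPKM in empty vector cells. Only in the thioredoxin group and the transferases was every LACTB library higher than every empty vector library, and in no group was every one lower.

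Cytosolic enzymes can be set against their mitochondrial counterparts within a library, where library size cancels. TXN over TXN2 was 10.4, 9.66 and 10.3 in LACTB libraries, against 7.87, 7.08 and 8.23 in empty vector libraries. TXNRD1, the cytosolic thioredoxin reductase and not one of the 38 genes, over TXNRD2 was 51.9, 42.9 and 44.1 in LACTB libraries, against 17.9, 19.7 and 19.3 in empty vector libraries. Both ratios were higher in every LACTB library, the reductases' by the wider margin since TXNRD1 rose as TXNRD2 fell. GLRX over GLRX2 was 3.19 ± 0.248 in LACTB cells and 2.39 ± 0.218 in empty vector cells, PRDX1 over PRDX3 9.33 ± 0.667 in LACTB cells and 8.34 ± 0.498 in empty vector cells, and SOD1 over SOD2 11.4 ± 0.512 in LACTB cells and 13.4 ± 1.02 in empty vector cells (SD, n = 3 each). The ratio thus lay higher in all LACTB libraries for 4 of the 5 pairs and lower for SOD1 over SOD2. TXN, TXNRD1 and GLRX rose as single genes, so their ratios are not separate results. Among all single tested genes, 22.3% had every LACTB library higher and 25.1% every one lower. The shares among ratios of other gene pairs were not worked out. For PRDX1 over PRDX3 the groups nearly met, at 8.73 in the lowest LACTB library and 8.68 in the highest empty vector library. The pairs are a description and were not tested. A mitochondrial place was assigned here to 11 tested genes, some of them with other places too. Of the 11, GSR rose (9.09%) and GPX4, TXNRD2 and GLRX5 fell (27.3%), beside 14.8% and 17.2% of all tested genes. MGST1, which rose, was assigned to membranes only and SOD1 to the cytosol only. Neither is among the 11, and another assignment would change these shares. Among the 11, 5 were assigned to mitochondria alone (TXN2, TXNRD2, PRDX3, GLRX5 and SOD2), and of these 0 rose and TXNRD2 and GLRX5 fell.

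**Figure D3:**
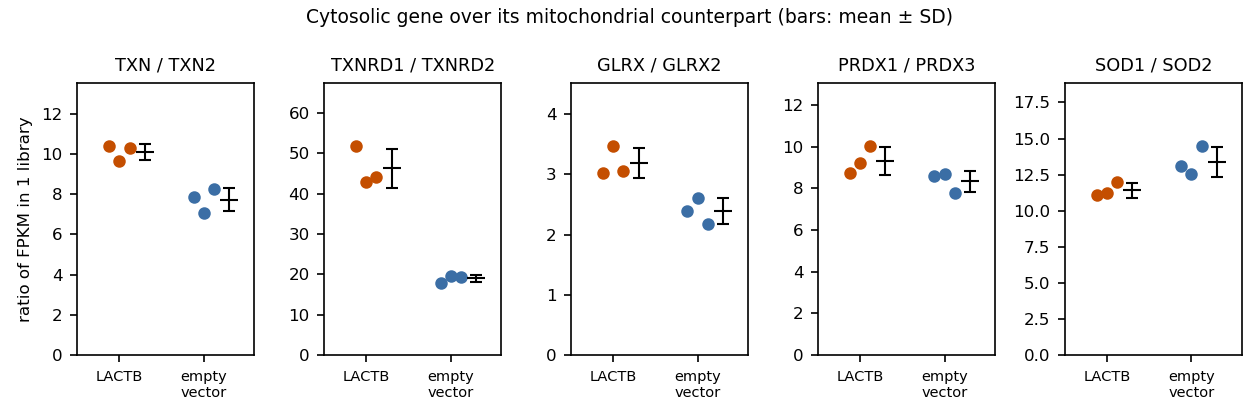
Ratio of FPKM of a cytosolic gene to its mitochondrial counterpart in each library (points; LACTB in orange, empty vector in blue; bars for mean ± SD, n = 3 each). TXNRD1 over TXNRD2 lies at 42.9 to 51.9 in LACTB libraries against 17.9 to 19.7 in empty vector libraries, and SOD1 over SOD2 is the 1 pair of 5 with the LACTB libraries lower.

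Of the 5 genes that fell, GPX3, GPX4 and TXNRD2 encode selenoproteins, which carry the amino acid selenocysteine. This grouping was made after the values were seen. Of the 25 human selenoprotein genes, 17 were tested, TXNRD1 and SEPHS2 rose, and GPX3, GPX4, TXNRD2 and SELENOT fell. As shares of the 17, that is 11.8% risen and 23.5% fallen, with a median log2 fold change of -0.09, beside 14.8%, 17.2% and -0.01 over all tested genes.

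Beyond the 38 genes, a list named glutathione supply and synthesis also held enzymes of glutathione breakdown such as CHAC1. Of its 11 tested genes 7 rose (63.6%), CHAC1 among them, and 0 fell, with a median log2 fold change of 0.84. The share is therefore not one of supply and synthesis alone. Over all tested genes the shares were 14.8% and 17.2%, with a median of -0.01. This list was chosen with earlier results of these data known, and the difference was not tested. SLC7A11, the cystine importer, had 50.2, 47.8 and 46.1 FPKM in LACTB libraries, against 7.70, 8.68 and 9.04 FPKM in empty vector libraries (limma, adjusted p = 2.93e-06). Its partner SLC3A2 averaged 95.7 ± 5.72 FPKM in LACTB cells and 32.6 ± 1.18 FPKM in empty vector cells, and CHAC1, which degrades glutathione, 10.8 ± 1.25 FPKM in LACTB cells and 2.50 ± 0.152 FPKM in empty vector cells. GCLM and GCLC, the subunits of the ligase that sets the pace of glutathione synthesis, averaged 11.9 ± 0.681 and 4.94 ± 0.211 FPKM in LACTB cells, against 6.19 ± 0.693 and 3.56 ± 0.0743 FPKM in empty vector cells. The transporters SLC1A4 and SLC1A5 made up the 7. The log2 fold change of GCLM was 0.84 and that of GCLC 0.38, and those of the other 5 were larger than that of MGST1.

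Of 24 tested genes of the thioredoxin fold and its partners, 4 rose (16.7%) and 3 fell (12.5%), with a median log2 fold change of -0.06, beside 14.8%, 17.2% and -0.01 over all tested genes. TXNRD1 averaged 307 ± 2.12 FPKM in LACTB cells and 172 ± 3.47 FPKM in empty vector cells (log2 fold change 0.83; limma, adjusted p = 1.75e-05), and SESN2, a stress-induced sestrin, 33.2 ± 0.901 FPKM in LACTB cells and 7.86 ± 0.942 FPKM in empty vector cells (log2 fold change 1.96). TXNL4B and ARRDC2 were the other rises, and TMX1, TMX4 and TXNDC16, of the endoplasmic reticulum, fell. Among 17 tested genes that use or export glutathione, 2 rose, the exporter ABCC3 (2.05 ± 0.0451 FPKM in LACTB cells and 0.283 ± 0.0298 FPKM in empty vector cells) and GDAP1, and 6 fell, which is 11.8% risen and 35.3% fallen. The falls included TST, a mitochondrial sulphur transferase (4.31 ± 0.388 FPKM in LACTB cells and 6.52 ± 0.477 FPKM in empty vector cells), ESD, which frees glutathione from its formaldehyde adduct, and GLO1, which detoxifies methylglyoxal (77.5 ± 1.74 FPKM in LACTB cells and 91.3 ± 4.46 FPKM in empty vector cells). Of 3 further tested genes of the same enzyme families, ALOX5AP, of leukotriene synthesis, rose to 3.21 ± 0.0883 FPKM in LACTB cells, against 0.423 ± 0.0343 FPKM in empty vector cells.

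NADPH, on which both reductases draw, was represented by 15 tested genes. Of these, 6 rose (40%) and 4 fell (26.7%), beside 14.8% and 17.2% of all tested genes. Their median log2 fold change was -0.0016. MTHFD2, of mitochondrial folate metabolism, averaged 58.4 ± 1.22 FPKM in LACTB cells and 30.5 ± 1.18 FPKM in empty vector cells, and MTHFD1L also rose. ME3 and NNT, which make NADPH in mitochondria, averaged 7.19 ± 0.331 and 6.30 ± 0.0703 FPKM in LACTB cells, against 10.2 ± 0.306 and 7.61 ± 0.0701 FPKM in empty vector cells, and IDH1 and IDH2 fell too. Of 16 tested genes of selenoprotein synthesis and other selenoproteins, SEPHS2, SECISBP2 and SEPSECS rose and SELENOT, LRP8 and SEPHS1 fell. That is 18.8% risen and 18.8% fallen, near the shares of all tested genes. Of 12 tested transcription factors and regulators of these systems, 4 rose (33.3%) and 3 fell (25%), beside 14.8% and 17.2% of all tested genes. ATF4, the stress-response factor that drives amino acid uptake, averaged 263 ± 8.57 FPKM in LACTB cells and 159 ± 3.90 FPKM in empty vector cells, NFE2L1, MAFG and MAFF rose, and BACH1, a repressor of antioxidant genes, averaged 10.9 ± 0.618 FPKM in LACTB cells and 14.3 ± 0.652 FPKM in empty vector cells. CUL3 and MLXIP were the other falls. NFE2L2, which encodes NRF2, averaged 15.6 ± 0.232 FPKM in LACTB cells and 14.6 ± 0.347 FPKM in empty vector cells and did not pass (limma, adjusted p = 0.116), nor did its inhibitor KEAP1 (adjusted p = 0.882). Over all 7 lists, 27 of 98 tested genes rose (27.6%) and 19 fell (19.4%), beside 14.8% and 17.2% of all tested genes; the lists were chosen with earlier results known. Of the list genes named here, ARRDC2, TMX1, TMX4, TXNDC16, GDAP1, IDH2, SECISBP2, SEPSECS, SEPHS1, CUL3 and MLXIP each lost their call when at least 1 library was left out, and ESD, GLO1 and IDH1 lost theirs as TPM.

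**Figure D4:**
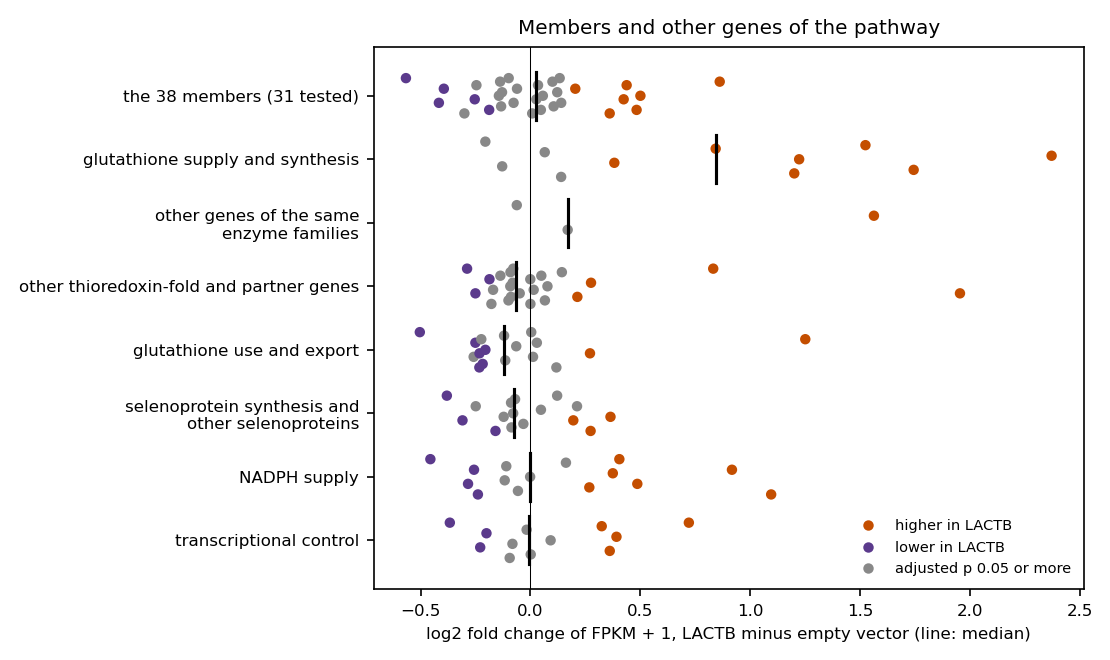
Log2 fold change of FPKM + 1 (LACTB minus empty vector) of each tested gene, for the 38 genes and 7 lists of other genes of the same pathways; orange points rose and purple points fell at an adjusted p under 0.05, and the vertical line in each row is its median. Glutathione supply and synthesis, a row that also holds enzymes of glutathione breakdown, has a median of 0.84. It stands to the right of the other rows that hold more than 3 tested genes.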

How the data were processed

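RNA was sequenced from 6 libraries of MUM2B cells, and the authors deposited 1 FPKM value per gene and library. The tools named in the submitters' processing notes are DESeq2 1.16.1, featureCounts 1.5.0-p3 and HISAT2 2.0.5, with build GRCh38 (hg38); the use of strand and of reads that match several places is not given in the sources used here. The 58735 gene IDs all matched GENCODE 29, the source of coordinates. Within a library, FPKM times exon length should be proportional to reads, so the smallest product above 0 was taken as the worth of 1 read and refined by least squares over low values. Divided by it, 100% of the values above 0 came out whole (within 0.1 reads), hence the reads and depths printed, whose intervals cover counting error only. SOD2 had 2 rows, and the row with the higher mean was used. Testing used limma 3.58.1 in R 4.3.3 (lmFit, eBayes with trend) on log2(FPKM + 1), which understates changes of low genes. The test was also run on simulated reads that gave every gene the same dispersion, unlike these libraries. That run checks the code and not the calls made here.

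The 38 genes, the 7 lists and the tests were chosen with earlier results of these data known. Values per library are given for each of the 38 that passed and for the most abundant of each role. From each list, up to 3 higher and 3 lower genes with the smallest p were named, and every gene of a count of 5 or fewer. GCLC, GCLM, CHAC1, SLC1A5, NFE2L2 and KEAP1 were added after their values were seen. Some genes that the rule names are left out of the text. Alternatives were a pseudocount of 0.1, other filters, TPM, median-of-ratios and quantile scaling, limma voom on recovered reads, a replicate block, an adjusted p under 0.01 and the omission of each library in turn. No pair of libraries agreed within sampling noise.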

Additional observations from a re-analysis of the deposited data

How the results depend on the processing

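Of the 12 genes that passed, GSR, MGST1, PRDX6, TXN, TXNIP, GLRX, GPX3, TXNRD2 and GLRX5 kept their call in all 14 alternatives. GPX4 lost it in 11 of 14 (limma, adjusted p = 0.0293 to 0.187), MGST2 in 7 of 13 (0.00854 to 0.0672) and GSTO1 in 6 of 14 (0.000535 to 0.0799); the cause was not tested. Besides single libraries left out, GSTO1 lost it without a filter and as TPM, MGST2 without a filter and with the replicate block, and GPX4 without a filter, as TPM, with quantile normalization, with voom and with the replicate block. The genes that fell numbered 3 without a filter, with the replicate block and at an adjusted p under 0.01, and 3 to 4 with single libraries left out, and those that rose 6 to 7 with single libraries left out. GGCT, GSS, SOD2 and GPX8, uncalled in the report, passed under at least 1 alternative. With single libraries left out, the log2 fold change of GSTP1 ran from -0.0221 (without LACTB replicate 2) to 0.0657 and turned negative without LACTB replicate 3 or empty vector replicate 2 or 3 too, and that of TXN2 ran from -0.00669 (without LACTB replicate 2) to 0.0744. KEAP1, uncalled, turned positive as TPM (0.00514), with quantile normalization (0.00638) and with voom (0.0139), and ran from -0.0963 to 0.0546 (without LACTB replicate 1) with single libraries left out. Over all genes, rises numbered 1155 at a mean of at least 5 FPKM, 1155 with the replicate block, 847 at an adjusted p under 0.01 and 1132 (without LACTB replicate 2) to 1495 with a library left out. Falls numbered 1295 as TPM, 1324 with the replicate block, 1004 at an adjusted p under 0.01 and 1392 to 1810 with a library left out. As TPM, rises numbered 1615. No pairing by replicate number was seen. The correlations of same-numbered deviations were -0.13, 0.019 and -0.044, and no LACTB sample was closest to the empty vector sample of its own number. With 3 libraries a group, this cannot tell whether same-numbered samples were handled together. Depth limits GGT1, GSTM4, GPX2 and GSTM2, whose values rest on at most 55 reads a library.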
